A study of Mus musculus with 32 samples.

Results

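Glutamate and GABA receptor genes were examined in the striatum of wild-type mice and of R6/2 mice, a model of Huntington's disease, given vehicle or HSP990. A gene was included when its symbol in the platform's probe list was that of an AMPA, NMDA, kainate or delta receptor subunit, a metabotropic glutamate receptor, a GABA-A receptor subunit or a GABA-B receptor subunit. Each gene was represented by its single-symbol probe set with the highest mean over all arrays. This gave 37 receptor genes of 18193 genes in all: 4 AMPA, 6 NMDA, 5 kainate, 1 delta and 6 metabotropic glutamate receptor genes, 14 GABA-A genes and 1 GABA-B gene. The choice of genes used symbols and no measured value, although the families were proposed with earlier results of these data known. The choice of a probe set for each gene did use measured values, namely the mean over all arrays. Other members of these families were not analysed here. Of the 37 probe sets, 28 had a mean above 5.76, the median log2 value of all probe sets, and 9 were dimmer.

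Striatal RNA of male mice, 12 weeks old and of mixed CBA X C57Bl/6 background, was hybridised to 32 Affymetrix mouse arrays. Wild-type mice gave 7 vehicle arrays and 10 HSP990 arrays, and R6/2 mice gave 7 and 8. HSP990 is an oral inhibitor of the chaperone HSP90. It was given by gavage at 12 mg/kg for 4 h according to the series' design text, and vehicle was the dosing suspension without the compound. R6/2 mice carry the start of the human huntingtin gene with an expanded CAG repeat as a transgene, so every effect of genotype here is that of a single transgenic line at a single age. Labels number the replicates without naming animals, so p-values reflect only how much these arrays vary. All values below are on the deposited log2 scale, where a difference of 1 is a doubling. Changes are differences of group means from a limma model of all 4 groups with standard errors (SE). Genes passed, and are termed called, when their p adjusted over the 18193 genes (Benjamini-Hochberg) was under 0.05.

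Most striatal neurons are medium spiny neurons, which release GABA and are driven by glutamate from cortex and thalamus. AMPA receptors carry fast excitation, NMDA receptors admit calcium and serve synaptic plasticity, and kainate receptors act on both sides of the synapse. Metabotropic glutamate receptors couple to G proteins. GABA-A receptors are chloride channels of 5 subunits, whose composition sets whether they act at synapses or outside them, and GABA-B receptors are G protein-coupled dimers.

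Receptor genes were lower in R6/2 striatum more often than higher. On vehicle 13 of the 37 receptor genes fell in R6/2 and 1 rose, against 9.6% of all genes called lower and 11.9% called higher. On HSP990 16 fell and 2 rose, against 11% of all genes called lower and 22.6% called higher. No array entered the group means of both genotype comparisons, but both shared an estimate of the spread per gene from all 32 arrays. All 14 genes called on vehicle were also called in the same direction in the HSP990 arrays, 4 more were called there alone, and 19 were called in neither. The difference between the treatments was itself tested as the interaction, which called no receptor gene, against 0.247% of all genes. Median change of the 37 genes was -0.17 on vehicle and -0.20 on HSP990, beside -0.01 and 0.04 for all genes. Among the 22 glutamate receptor genes 9 fell on vehicle and 12 on HSP990, and none rose. Among the 15 GABA receptor genes 4 fell and 1 rose on vehicle, and 4 fell and 2 rose on HSP990. All calls were among the 28 brighter probe sets, where 12.7% of all genes so bright were called lower on vehicle and 15.1% on HSP990.

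**Figure D1:**
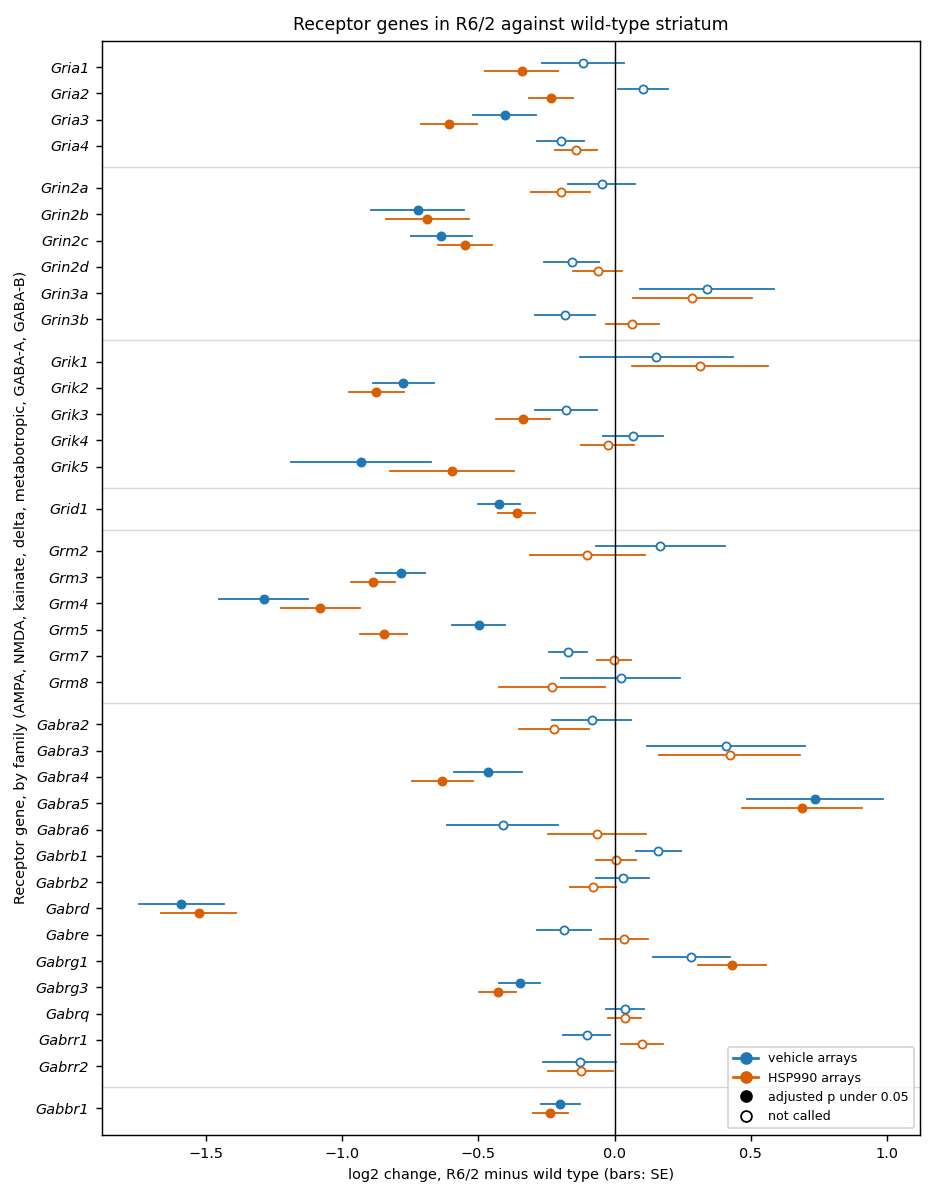
Log2 change of each of the 37 receptor genes (rows, by family), R6/2 minus wild type, for vehicle arrays (blue) and HSP990 arrays (orange), with the SE as bars and filled points where the gene was called. Gabrd lies farthest to the left (-1.59 on vehicle, -1.53 on HSP990), and Gabra5 is the gene farthest to the right (0.74 and 0.69).

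These changes were measured in whole tissue, where fewer cells of a type and less RNA per cell cannot be told apart. Marker genes of medium spiny neurons moved with genotype: 17 of 18 measured markers fell in R6/2 in both comparisons, with a median change of -1.51 in each. Mean level of the list per array ran from 11.54 to 11.96 in wild-type vehicle and from 9.44 to 10.96 in R6/2 vehicle, and from 11.51 to 12.03 and from 9.72 to 10.72 in the HSP990 arrays. Of 12 interneuron markers 6 fell on vehicle and 7 on HSP990. Of 12 astrocyte markers 1 fell on vehicle, while 6 fell and 1 rose on HSP990. Of 9 oligodendrocyte markers 2 fell on vehicle and 6 on HSP990 (medians -0.16 and -0.46), and of 9 microglia markers 2 and 5 (medians -0.15 and -0.37). Of 11 cortical markers 2 fell in each comparison, and the mean level of the list overlapped between genotypes (6.46 to 7.90 in wild-type vehicle, 6.06 to 7.98 in R6/2 vehicle). None of 7 choroid plexus markers was called, with median changes of -0.98 on vehicle and 0.12 on HSP990. The mean level of that list varied widely between arrays, from 5.32 in an R6/2 vehicle array to 9.33 in a wild-type HSP990 array. The part of these cell types in the receptor changes was not tested. With HSP990 Hspb1, a heat shock gene, rose by 2.75 ± 0.12 in wild type and by 2.63 ± 0.12 in R6/2.

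Among AMPA subunits, which form the main fast excitatory channels, Gria3 alone fell on vehicle. Gria3 ranged over 10.55, 10.70 and 11.00 (lowest, median and highest array) in wild-type vehicle and over 9.92, 10.23 and 10.94 in R6/2 vehicle. The R6/2 arrays lay mostly below the wild-type range, but the highest of them, with replicate 7 at the top, reached into it. On HSP990 the values were 10.39, 10.72 and 10.96 in wild type and 9.92, 10.05 and 10.33 in R6/2, and the genotypes did not overlap. Gria3 fell by 0.40 ± 0.11 on vehicle (1.32-fold lower, adjusted p = 0.0101) and by 0.61 ± 0.10 on HSP990 (1.52-fold lower, adjusted p = 1.55e-05). With only the vehicle groups in the fit its adjusted p was 0.0631. Gria1 and Gria2, the subunits of the most common AMPA receptors, were called in the HSP990 arrays, where they fell by 0.34 ± 0.13 (adjusted p = 0.0486) and 0.23 ± 0.08 (adjusted p = 0.0249). On vehicle their changes were -0.12 ± 0.15 and 0.10 ± 0.09. Gria1 lost its call in 24 of 45 alternative settings. In 19 of these a single array was left out (-0.36 to -0.27, adjusted p up to 0.129), namely one of wild-type HSP990 replicates 1, 2, 4, 6, 7, 8, 9 and 10, R6/2 HSP990 replicates 1, 3, 5, 6, 7 and 8, wild-type vehicle replicates 1, 2 and 6 and R6/2 vehicle replicates 2 and 4. Gria2 lost its call without R6/2 HSP990 replicate 2 or 4 (-0.19 and -0.20, adjusted p = 0.0654 and 0.0652) and with the 3' bias of arrays as a covariate (-0.15, adjusted p = 0.175). Gria4 was not called (-0.20 on vehicle and -0.14 on HSP990).

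Of the NMDA subunits, Grin2b and Grin2c fell in both comparisons. Grin2b encodes a subunit that slows the decay of NMDA currents and binds CaM kinase II. It measured 9.43, 10.09 and 10.55 in wild-type vehicle and 8.88, 9.30 and 9.95 in R6/2 vehicle. Among HSP990 arrays it measured 9.99, 10.24 and 10.56 in wild type and 8.90, 9.59 and 10.11 in R6/2. R6/2 medians were lower in both, while the highest R6/2 arrays stayed within the wild-type range. Grin2b fell by 0.72 ± 0.17 (1.65-fold lower, adjusted p = 0.0024) and by 0.69 ± 0.15 (1.61-fold lower, adjusted p = 0.00057).

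Grin2c, best known from cerebellar granule cells, was dimmer. Wild-type vehicle arrays gave 7.47, 7.90 and 8.27, and R6/2 vehicle arrays 6.91, 7.24 and 7.47, the ranges touching at their ends. On HSP990 the values were 7.49, 7.75 and 7.85 against 6.84, 7.10 and 7.48, and no R6/2 array reached the wild-type range. The gene fell by 0.64 ± 0.11 on vehicle (1.55-fold lower, adjusted p = 8.22e-05) and by 0.55 ± 0.10 on HSP990 (1.46-fold lower, adjusted p = 4.74e-05). Grin2a, Grin2d, Grin3a and Grin3b were not called, with changes from -0.18 to 0.34 on vehicle and from -0.20 to 0.29 on HSP990. Grin2a and Grin3b were below the median of all probe sets.

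Kainate receptors are tetramers in which Grik5, a high-affinity subunit, needs a partner such as Grik2 to form a channel. Both genes fell in R6/2. Grik2 measured 8.06, 8.50 and 8.55 in wild-type vehicle and 7.32, 7.56 and 8.13 in R6/2 vehicle, and only the upper end of the R6/2 range reached into the wild-type range. With HSP990 it measured 8.06, 8.49 and 8.75 against 7.18, 7.63 and 7.78, with no overlap. Grik2 fell by 0.78 ± 0.11 on vehicle (1.71-fold lower, adjusted p = 5.7e-06) and by 0.88 ± 0.10 on HSP990 (1.84-fold lower, adjusted p = 3.38e-08).

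Grik5 had the largest SE of the called receptor genes. Its values were 8.72, 9.61 and 10.29 in wild-type vehicle and 8.11, 8.50 and 9.87 in R6/2 vehicle. The highest R6/2 vehicle array, replicate 1, stood more than 1 log2 unit above the next. With HSP990 the values were 9.38, 9.62 and 10.05 in wild type and 8.15, 9.16 and 9.78 in R6/2. The genotypes overlapped in both comparisons, further on vehicle than on HSP990. Grik5 fell by 0.93 ± 0.26 on vehicle (1.91-fold lower, adjusted p = 0.00828) and by 0.60 ± 0.23 on HSP990 (1.51-fold lower, adjusted p = 0.0419). The call on HSP990 was lost in 14 of 45 alternative settings, among them the fit without the arrays of strong 3' bias (-0.47, adjusted p = 0.125). It was also lost without any 1 of R6/2 HSP990 replicates 5, 6, 7 and 8 and wild-type HSP990 replicates 1, 2, 4, 5, 7 and 8 (-0.60 to -0.47, adjusted p up to 0.118). Grik3 was called in the HSP990 arrays only, where it fell by 0.34 ± 0.10 (adjusted p = 0.00832), and its change on vehicle was -0.18 ± 0.11. Grik1 and Grik4 were not called.

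Grid1 encodes a delta receptor, which is thought to act mainly as an organiser of synapses that binds cerebellins. Wild-type vehicle arrays measured 8.49, 8.60 and 8.94 and R6/2 vehicle arrays 8.09, 8.20 and 8.32, with every R6/2 array below every wild-type array. In the HSP990 arrays the values were 8.37, 8.62 and 8.92 against 8.13, 8.22 and 8.47, with a small overlap. Grid1 fell by 0.42 ± 0.08 on vehicle (1.34-fold lower, adjusted p = 0.000126) and by 0.36 ± 0.07 on HSP990 (1.28-fold lower, adjusted p = 8.99e-05).

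Of the metabotropic glutamate receptors, Grm3, Grm4 and Grm5 fell and Grm2, Grm7 and Grm8 were not called. Grm5, a group I receptor that couples to phospholipase C and is abundant in medium spiny neurons, measured 11.40, 11.71 and 11.90 in wild-type vehicle and 10.93, 11.19 and 11.56 in R6/2 vehicle. With HSP990 the values were 11.54, 11.82 and 12.02 in wild type and 10.63, 10.96 and 11.30 in R6/2. The vehicle groups overlapped slightly and the HSP990 groups did not. Grm5 fell by 0.50 ± 0.10 (1.41-fold lower, adjusted p = 0.000303) and by 0.85 ± 0.09 (1.80-fold lower, adjusted p = 4.11e-09). The difference between these changes, the interaction, was -0.35 (95% interval -0.61 to -0.08) and did not pass (adjusted p = 0.243).

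Grm3, a group II receptor that inhibits adenylyl cyclase and is found on neurons and astrocytes, separated the genotypes fully. Its values were 10.80, 11.17 and 11.27 in wild-type vehicle and 10.06, 10.32 and 10.58 in R6/2 vehicle. In the HSP990 arrays they were 11.06, 11.19 and 11.36 against 9.87, 10.36 and 10.60. No R6/2 array reached a wild-type array under either treatment. Grm3 fell by 0.79 ± 0.09 on vehicle (1.72-fold lower, adjusted p = 1.47e-07) and by 0.89 ± 0.08 on HSP990 (1.85-fold lower, adjusted p = 4.09e-10).

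Grm4, a group III receptor on presynaptic terminals, including those of striatal neurons in the pallidum, had the second largest change among the brightest probe sets of the receptor genes. Wild-type vehicle arrays gave 7.13, 7.69 and 7.72 and R6/2 vehicle arrays 5.83, 6.12 and 6.96. With HSP990 the values were 7.13, 7.56 and 7.87 in wild type and 5.86, 6.60 and 6.84 in R6/2. Here too the genotypes did not overlap under either treatment. Grm4 fell by 1.29 ± 0.16 on vehicle (2.45-fold lower, adjusted p = 5.71e-07) and by 1.08 ± 0.14 on HSP990 (2.12-fold lower, adjusted p = 4.3e-07).

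Gabrd, which encodes the delta subunit of GABA-A receptors outside synapses that carry tonic inhibition, had the largest change of the 37 genes when each was read from its brightest probe set. In wild-type vehicle arrays Gabrd measured 9.62, 10.35 and 10.55, and in R6/2 vehicle arrays 8.11, 8.78 and 9.21. Under HSP990 it measured 9.69, 10.35 and 10.50 in wild type and 8.37, 8.82 and 9.0 in R6/2. The lowest wild-type arrays were vehicle replicate 4 and HSP990 replicate 6, which had the highest cortical marker level of their groups. Both lay above every R6/2 array. Gabrd fell by 1.59 ± 0.16 on vehicle (3.02-fold lower, adjusted p = 9.58e-09) and by 1.53 ± 0.14 on HSP990 (2.88-fold lower, adjusted p = 3.4e-10). Without the array of highest cortical marker level in each group the changes were -1.62 and -1.57. Whether cortical tissue had a part in the Gabrd values was not tested. When its bright and its dim probe set were averaged, the changes were -0.85 and -0.78, still called, and those of Grm4, which has a single probe set (-1.29 and -1.08), were larger.

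Gabra4, an alpha subunit that pairs with the delta subunit in the forebrain, also fell in both comparisons. Its values were 10.15, 10.61 and 11.05 in wild-type vehicle and 9.81, 10.25 and 10.47 in R6/2 vehicle. After HSP990 they were 10.50, 10.80 and 10.92 against 9.70, 10.11 and 10.54. The ranges overlapped in both comparisons, on HSP990 at the margin only. The falls were 0.46 ± 0.12 (1.38-fold, adjusted p = 0.00672) and 0.63 ± 0.11 (1.55-fold, adjusted p = 3.01e-05). Gabrg3, a gamma subunit, fell by 0.35 ± 0.08 (adjusted p = 0.00105) and 0.43 ± 0.07 (adjusted p = 6.48e-06), and on vehicle no R6/2 array (6.54 to 6.84) reached a wild-type array (6.95 to 7.14).

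Gabra5 was the only receptor gene called higher in both comparisons in the model of all arrays. Its product forms extrasynaptic receptors best known in the hippocampus. Wild-type vehicle arrays measured 6.93, 7.41 and 8.09 and R6/2 vehicle arrays 7.35, 8.06 and 10.00. With HSP990 the values were 6.64, 7.14 and 8.02 in wild type and 7.70, 7.84 and 8.28 in R6/2. The genotypes overlapped under both treatments, and R6/2 vehicle replicate 7 stood far above its group, whose next value was 8.31. Gabra5 rose by 0.74 ± 0.25 on vehicle (1.67-fold, adjusted p = 0.0317) and by 0.69 ± 0.22 on HSP990 (1.61-fold, adjusted p = 0.0147). Without replicate 7 the difference on vehicle was 0.45 (adjusted p = 0.0788) and the call was lost, as it was without wild-type vehicle replicate 3, 5, 6 or 7 (0.64 to 0.72, adjusted p up to 0.0745). The vehicle call was lost in 9 of 45 alternative settings. Among them were the fit of the vehicle groups only (0.74, adjusted p = 0.121) and that without the arrays of strong 3' bias (0.72, adjusted p = 0.0526). R6/2 vehicle replicate 7 also had the highest mean level of thalamic and other subcortical markers, 6.95 against a group median of 5.96. Its cortical marker level was 7.79 against a group median of 6.65, below that of replicate 4 (7.98). The part of either in the value was not tested.

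Gabrg1, another gamma subunit gene, rose by 0.43 ± 0.13 in the HSP990 arrays (adjusted p = 0.00724). On vehicle its difference of 0.28 ± 0.14 did not pass, but it did without R6/2 vehicle replicate 7 (0.39, adjusted p = 0.0331) and with array weights (0.39, adjusted p = 0.0389), both settings in which Gabra5 lost its call on vehicle. The other 9 GABA-A genes, Gabra2, Gabra3, Gabra6, Gabrb1, Gabrb2, Gabre, Gabrq, Gabrr1 and Gabrr2, were not called, with changes from -0.41 to 0.41 on vehicle and from -0.22 to 0.42 on HSP990. Gabra6, Gabre, Gabrq, Gabrr1 and Gabrr2 were below the median of all probe sets. Gabbr1, the ligand-binding subunit of the GABA-B receptor, fell by 0.20 ± 0.07 on vehicle (adjusted p = 0.0457) and by 0.24 ± 0.06 on HSP990 (adjusted p = 0.00393). With the 3' bias of arrays as a covariate the latter was not called (-0.14, adjusted p = 0.0536). The call on vehicle was lost in 23 of 45 alternative settings. In 17 of these a single array was left out (-0.21 to -0.17, adjusted p up to 0.101), namely one of R6/2 vehicle replicates 1, 2, 3, 4 and 6, wild-type vehicle replicates 2, 3, 4, 6 and 7, wild-type HSP990 replicates 1, 4, 5, 7, 9 and 10 and R6/2 HSP990 replicate 3.

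**Figure D2:**
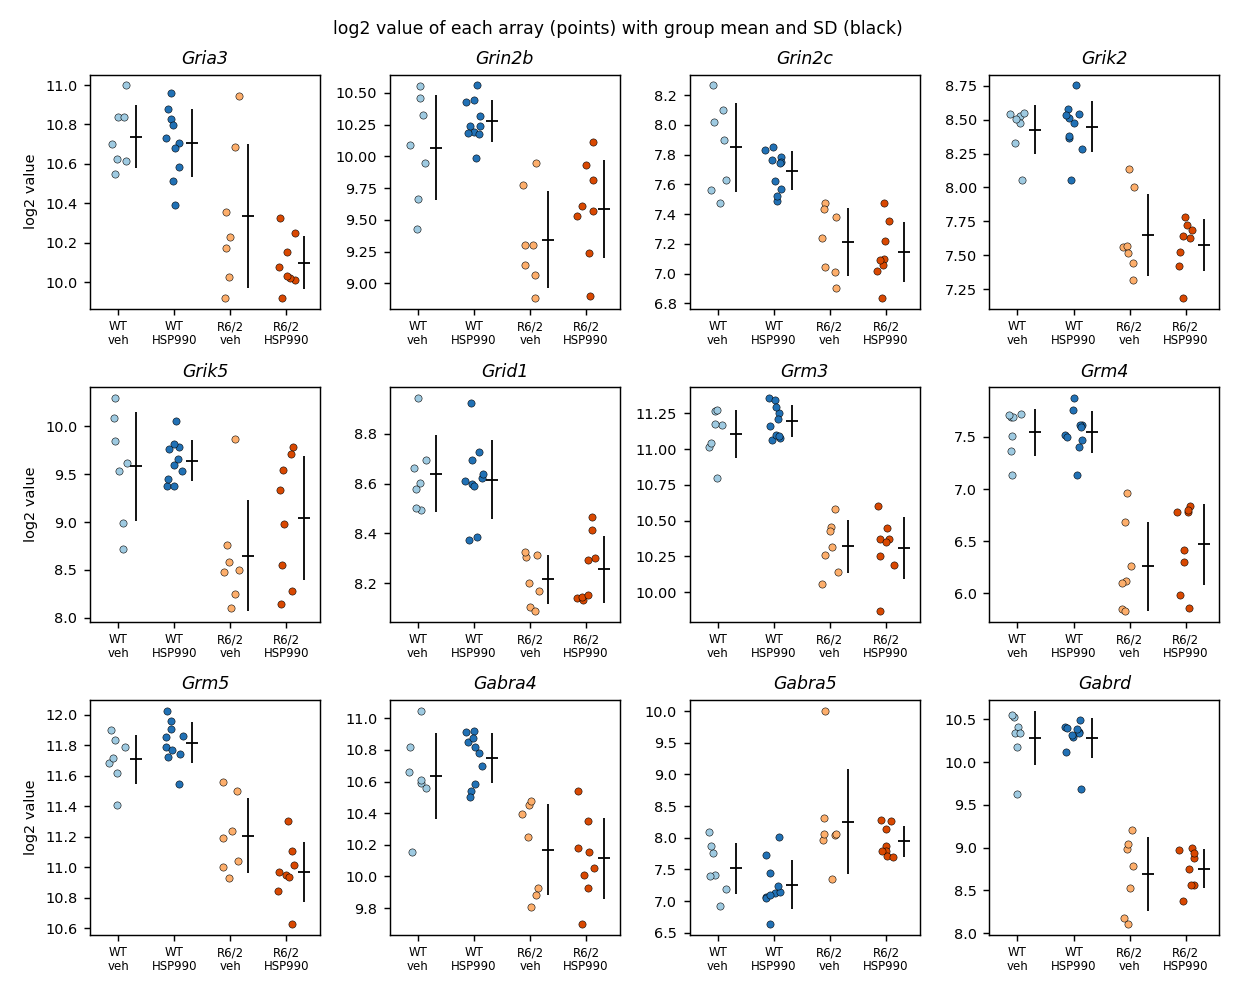
Log2 value of each array (points) in the 4 groups for the 12 receptor genes with the largest called changes on vehicle, with the group mean and SD in black and a separate vertical scale in each panel. Grm3, Grm4 and Gabrd show no overlap of R6/2 with wild type, and a single R6/2 vehicle array lies at 10.0 in the panel of Gabra5.

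Complete separation of R6/2 from wild-type arrays was seen for 5 of 37 receptor genes on vehicle (Gabrd, Gabrg3, Grid1, Grm3 and Grm4), against 3.9% of all genes. On HSP990 it was seen for 7 (Gabrd, Gria3, Grik2, Grin2c, Grm3, Grm4 and Grm5), against 9.4% of all genes. All of them were lower in R6/2. Treated and vehicle arrays of the same genotype overlapped for all 37 genes.

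Probe sets other than the brightest gave a second reading of 23 genes. Both probe sets of Gria3, Grik2, Grid1, Grm5 and Gabra4 fell in both genotype comparisons, and all 3 probe sets of Gria2 fell in the HSP990 arrays. Other genes were less even. For Grm7, a presynaptic group III receptor, the brightest probe set was not called (-0.17 on vehicle, -0.00 on HSP990), whereas the next brightest probe set fell by 0.79 and 0.87. For Grin2b the next probe set had a difference of 0.01 ± 0.32 on vehicle and fell by 1.08 ± 0.28 on HSP990. Gabbr1 had probe sets that moved in opposite directions in the HSP990 arrays, the second brightest with a rise of 0.54 ± 0.10 and the third with a fall of 0.72 ± 0.24. The other probe set of Gabrd was dim, with a mean of 3.98, and was not called (-0.10 ± 0.07 and -0.03 ± 0.06). For Gabrg3, 1 of 4 probe sets fell on vehicle and 3 of 4 on HSP990. Gria4 and Gabra2 each had 1 further probe set that fell on HSP990, by 0.67 ± 0.11 and 0.64 ± 0.24. These counts come from a fit of all single-symbol probe sets. When the probe sets of a gene were averaged instead, the vehicle calls of Grin2b (-0.22, adjusted p = 0.126) and Gabrg3 (-0.18, adjusted p = 0.126), the HSP990 call of Gabrg1 (0.21, adjusted p = 0.276) and both calls of Gabbr1 (-0.06, adjusted p = 0.612, and -0.10, adjusted p = 0.266) were lost. Gria4 (-0.34, adjusted p = 0.00154) and Gabra2 (-0.30, adjusted p = 0.032) were then called lower on HSP990.

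**Figure D3:**
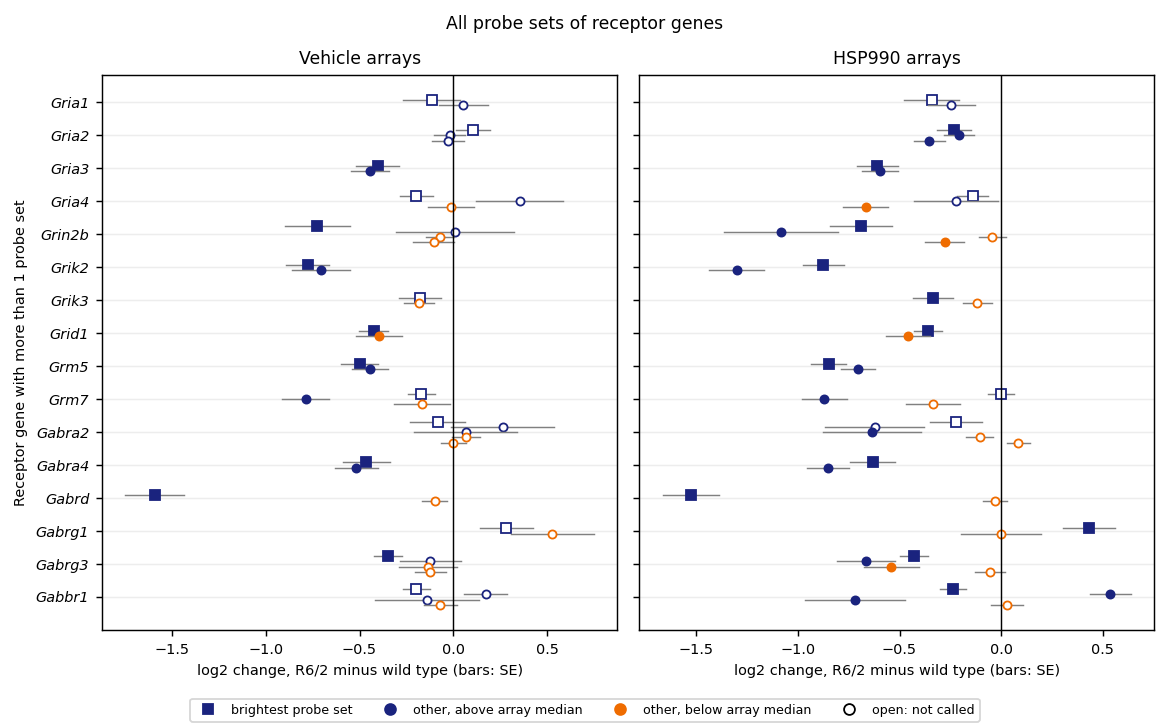
Log2 change, R6/2 minus wild type, of every single-symbol probe set of the 16 receptor genes that have more than 1 and were called in a genotype comparison, as a gene or for at least 1 probe set, on vehicle (left) and HSP990 (right), with the SE as bars. Squares mark the brightest probe set, blue and orange mark those above and below the median of the arrays, and open symbols were not called in the fit of all probe sets. The second probe set of Grm7 lies at -0.79 and -0.87, left of its brightest (-0.17 and -0.00).

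Several receptor genes lie next to each other in the genome, and some neighbours differed in their calls. In the RefSeq annotation of GRCm38.p6, Gabra4 and Gabrb1 are adjacent on chromosome 5 on opposite strands, and 1 listed start of Gabrb1 lies 387 bases from that of Gabra4. Gabrg3 and Gabra5 are adjacent on chromosome 7, on the same strand, with starts 122844 bases apart. The 250 bases before the starts of these 4 genes are printed here because the neighbours differed in their calls. For Gabrb1 the window of its other listed start is given, since the nearer one lies inside Gabra4. The printed Gabra4 window likewise lies inside Gabrb1 when that gene is read from its nearer start. Capitals mark matches, on either strand, to the GC box (GGGCGG, or CCGCCC when read on the opposite strand) and the CCAAT box.
Gabra4, chr5:71658309-71658558, minus strand: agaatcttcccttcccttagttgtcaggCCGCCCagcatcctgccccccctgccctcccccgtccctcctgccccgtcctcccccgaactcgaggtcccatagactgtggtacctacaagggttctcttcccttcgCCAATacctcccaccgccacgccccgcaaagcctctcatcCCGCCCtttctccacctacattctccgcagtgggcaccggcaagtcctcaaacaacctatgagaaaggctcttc
Gabrb1, chr5:71699682-71699931, plus strand: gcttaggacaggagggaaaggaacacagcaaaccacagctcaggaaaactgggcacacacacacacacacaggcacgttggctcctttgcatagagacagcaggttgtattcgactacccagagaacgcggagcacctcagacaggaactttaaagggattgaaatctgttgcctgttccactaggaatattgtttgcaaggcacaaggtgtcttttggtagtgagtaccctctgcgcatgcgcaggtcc
Gabrg3, chr7:57387216-57387465, minus strand: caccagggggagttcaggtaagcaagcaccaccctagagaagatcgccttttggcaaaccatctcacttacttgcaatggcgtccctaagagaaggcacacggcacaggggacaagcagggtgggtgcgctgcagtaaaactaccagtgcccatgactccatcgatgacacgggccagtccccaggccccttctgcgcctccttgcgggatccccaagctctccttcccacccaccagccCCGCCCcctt
Gabra5, chr7:57510060-57510309, minus strand: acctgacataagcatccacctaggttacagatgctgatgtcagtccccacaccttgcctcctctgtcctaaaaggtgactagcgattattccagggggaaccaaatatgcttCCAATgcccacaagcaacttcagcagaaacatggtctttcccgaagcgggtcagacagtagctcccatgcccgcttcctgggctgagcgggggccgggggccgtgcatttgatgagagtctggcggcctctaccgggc

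The Gabra4 window held 2 GC boxes and 1 CCAAT box, that of Gabrg3 1 GC box, that of Gabra5 1 CCAAT box and that of Gabrb1 neither. The TATA box (TATAAA) and the cAMP response element (TGACGTCA) were also searched on both strands and matched in none of these 4 windows. Promoter windows were found for 27 of the 37 receptor genes, 34 windows in all. GC boxes were in 50% of these windows and in 32.7% of 32851 windows of all genes, CCAAT boxes in 41.2% and 33.8%, TATA boxes in 11.8% and 12.4%, and the cAMP response element in 0 of 34 windows and in 1.55% of all. A match is a description of the letters and not a known site.

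Gabra4 fell while Gabrb1, which encodes a beta subunit, was not called (0.16 ± 0.08 on vehicle and 0.01 ± 0.07 on HSP990). Likewise Gabrg3 fell while Gabra5 rose. These 2 of 8 pairs of neighbouring receptor genes were chosen after their values had been seen, so their differences are a description and were not tested. Neighbours here had at most 1 protein-coding gene between them. Calls also differed between Gabra2, which was not called, and its neighbours Gabrg1 and Gabra4. Within arrays the difference Gabra4 minus Gabrb1 was lower in R6/2 by 0.63 on vehicle and by 0.64 on HSP990. Of the R6/2 arrays, 3 of 7 on vehicle and 6 of 8 on HSP990 lay below every wild-type array in this difference. The difference Gabrg3 minus Gabra5 was lower by 1.09 and 1.12, with 5 of 7 and 3 of 8 R6/2 arrays below every wild-type array. On vehicle the R6/2 mean of -1.56 includes replicate 7 at -3.46, the array whose Gabra5 value stood far above its group. Such a difference between probe sets does not rank the levels of the genes.

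HSP990 itself moved none of the 37 receptor genes past the threshold in either genotype when each was read from its brightest probe set. In wild type 0 of 37 were called with limma, against 5.8% of all genes, and 2 had an unadjusted p under 0.05. In R6/2 0 of 37 were called, against 3.09% of all genes, and 3 had an unadjusted p under 0.05. Of all 18193 genes 3363 in wild type and 2879 in R6/2 had an unadjusted p under 0.05, larger shares than among the receptor genes. Changes ran from -0.31 (Grik1) to 0.29 (Grin2a) in wild type and from -0.36 (Grm2) to 0.39 (Grik5) in R6/2. In the fit of all probe sets 2 dimmer ones were called. The dimmest of 3 probe sets of Gria4, with a mean of 5.51, rose by 0.52 ± 0.11 in wild type (adjusted p = 0.00401), and the dimmest of 3 of Gria2, with a mean of 9.45, fell by 0.29 ± 0.08 in R6/2 (adjusted p = 0.0473). The smallest adjusted p-values of the brightest probe sets were 0.105 for Grin3b in wild type and 0.166 for Gria2 in R6/2. The 95% intervals of the change lay within 0.5 log2 units of 0 for 27 genes in wild type and 26 in R6/2, and within 1 log2 unit for all 37 in both, so larger responses lay outside the intervals while smaller ones did not. For Gabrd, the gene with the largest genotype change, the interval of the HSP990 change was -0.29 to 0.29 in wild type and -0.24 to 0.37 in R6/2.

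**Figure D4:**
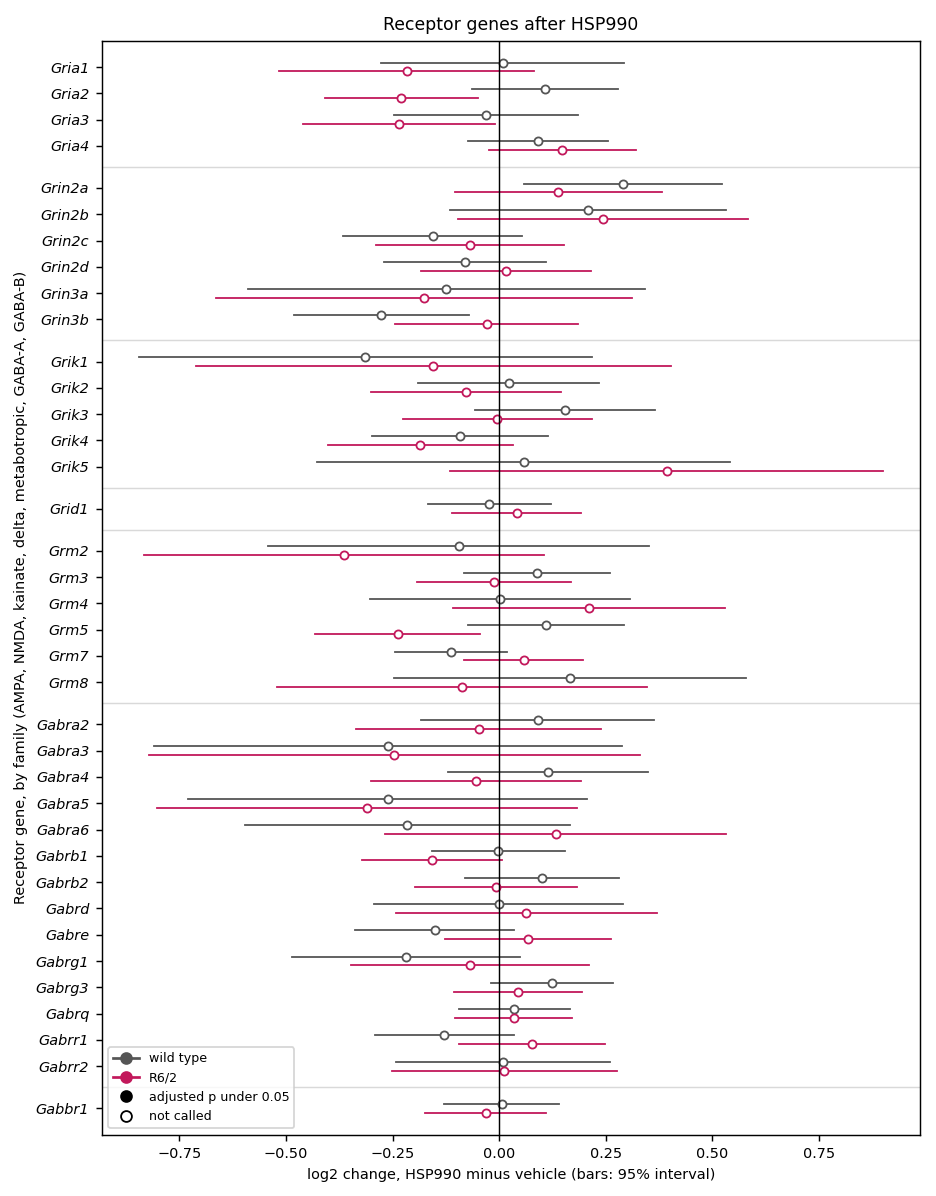
Log2 change of the 37 receptor genes (rows) after HSP990 against vehicle, in wild type (grey) and R6/2 (pink), with the 95% interval as bars. Every point is open, since no gene was called by its brightest probe set, and no interval passes 1 log2 unit on either side.

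The 3 genes of unadjusted p under 0.05 in R6/2 were Gria2, Gria3 and Grm5. Gria2, which makes AMPA receptors impermeable to calcium, differed from vehicle by -0.23 ± 0.09 in R6/2 (95% interval -0.41 to -0.05) and by 0.11 ± 0.09 in wild type. Its vehicle arrays in R6/2 measured 11.69, 12.06 and 12.43, and its treated arrays 11.58, 11.89 and 12.06, so the groups overlapped. Without R6/2 vehicle replicate 1, the lowest of its group, Gria2 passed (-0.29, adjusted p = 0.0353). R6/2 vehicle replicate 7 was the highest of its group for Gria2, Gria3 and Grm5 (12.43, 10.94 and 11.56). That array thus raised the vehicle means behind these 3 differences. For Gria3 the difference was -0.24 ± 0.11 and for Grm5 -0.24 ± 0.09 in R6/2, and neither passed. In wild type the 2 genes were Grin2a (0.29 ± 0.11) and Grin3b (-0.28 ± 0.10), both dim. The interaction of genotype and HSP990 called 0 of 37 receptor genes with limma, against 0.247% of all genes. An unadjusted p under 0.05 was found for 2 of the 37 (Gria2 and Grm5) and for 2345 of all 18193 genes, a larger share. The smallest adjusted p of the interaction was 0.225 (Gria2, -0.34), and its 95% interval lay within 1 log2 unit of 0 for 36 of 37 genes and reached 1.04 for Grik5.

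Genes whose products work with the receptors were read from lists of pathway genes. Auxiliary subunits of glutamate receptors control the trafficking and gating of the channels. Of these genes 9 of 14 fell and none rose on vehicle, with a median change of -0.50. Gsg1l, a modulator of AMPA receptors, fell by 1.89 ± 0.16 on vehicle and 1.99 ± 0.14 on HSP990. The stargazin relative Cacng4 fell by 1.28 ± 0.16 and 1.37 ± 0.14. Neto2, an auxiliary subunit of kainate receptors, fell by 1.00 ± 0.14 and 1.43 ± 0.13, and Shisa9, an AMPA receptor partner, by 0.55 ± 0.11 and 0.62 ± 0.10. In the HSP990 arrays 9 of 14 fell and Cacng8 rose by 0.70 ± 0.15, with a list median of -0.61.

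Scaffolds and kinases of the excitatory synapse fell for 7 of 23 genes on vehicle and 10 of 23 on HSP990, and none rose, with medians of -0.14 and -0.11. Shank3 and Dlgap3, which link receptors to the postsynaptic scaffold, fell by 1.38 ± 0.17 and 1.42 ± 0.22 on vehicle. Homer1, which tethers Grm5, fell by 0.71 ± 0.11 on vehicle and 1.05 ± 0.10 on HSP990, and Grasp, a scaffold of metabotropic receptors, by 0.81 ± 0.12 and 0.87 ± 0.11. Of 10 genes of glutamate transport and metabolism, Slc1a6, a glutamate transporter (0.96 ± 0.26), and Slc38a1, a glutamine transporter (0.32 ± 0.08), rose on vehicle and the neuronal glutamate transporter Slc1a1 fell by 0.26 ± 0.09. On HSP990 3 rose and 3 fell. Of all genes 22.6% were called higher and 11% lower on HSP990, and 11.9% and 9.6% on vehicle, so with so few genes the counts of this list and of the GABA lists are not read as particular to them.

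None of 14 scaffold and auxiliary genes of GABA receptors was called on vehicle, and on HSP990 1 rose and 2 fell, those that fell being Trak1 (-0.35 ± 0.08) and Nsg1 (-0.38 ± 0.11). Of 9 genes of GABA synthesis and transport, Gad2, which makes GABA, fell by 0.42 ± 0.13 on vehicle. On HSP990 Gad1 and Slc6a11, a GABA transporter, fell by 0.33 ± 0.09 and 0.61 ± 0.24, and the chloride importer Slc12a2 rose by 0.30 ± 0.11.

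**Figure D5:**
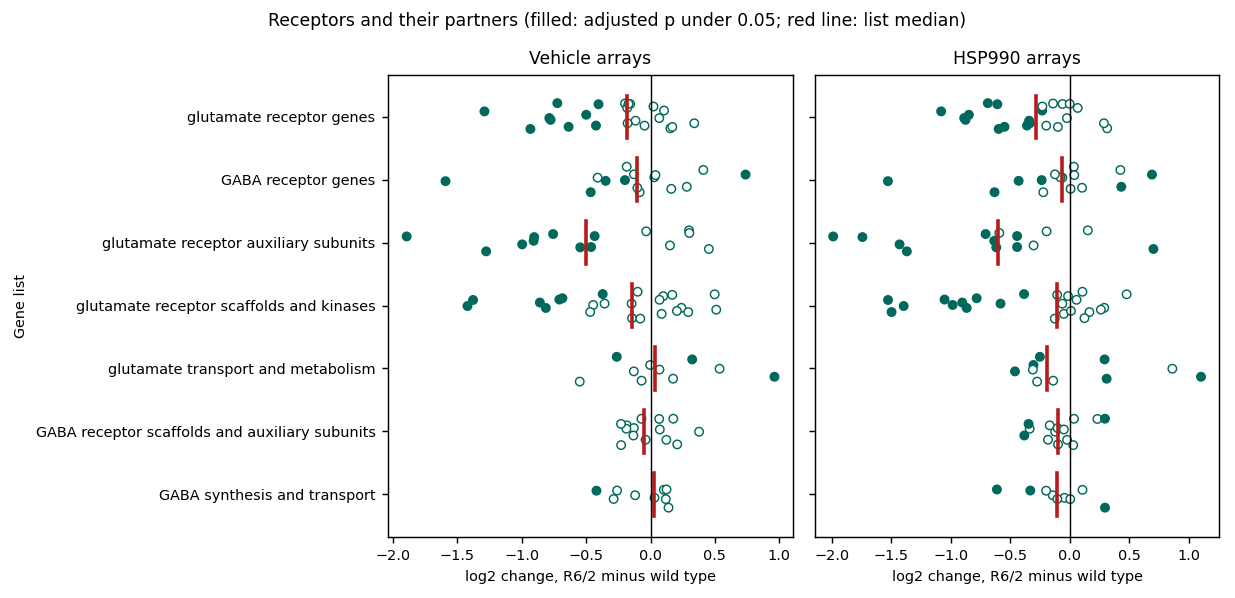
Log2 change, R6/2 minus wild type, of each gene (points) of the glutamate and GABA receptor genes and of 5 lists of partner genes, on vehicle (left) and HSP990 (right). Filled points were called and red lines mark list medians, the lowest of which is that of the auxiliary subunits (-0.50 and -0.61).

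HSP990 moved 5 of 70 partner genes in wild type (7.14%, against 5.8% of all genes) and 1 of 70 in R6/2 (1.43%, against 3.09%), shares near or below those of all genes. In wild type Cacng3 rose by 0.76 ± 0.22 and Neto2 by 0.64 ± 0.13, both of them auxiliary subunits, Slc7a11, a cystine and glutamate exchanger, rose by 0.55 ± 0.13, and Ubqln1 by 0.44 ± 0.07. Grip2, an AMPA receptor scaffold, fell by 0.30 ± 0.09. In R6/2 Glul, the glutamine synthetase gene of astrocytes, fell by 0.24 ± 0.07. No gene of these 5 lists was called in the interaction.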

How the data were processed

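Striatal RNA was hybridised to 32 arrays. The deposited values are log2 intensities normalized between arrays by the authors, as array medians of 5.73 to 5.78 in the deposited matrix show. How they were normalized is not stated in the labels used here, and the labels' protocols name a 3' labelling kit, so signal depends on RNA integrity. Of 45101 probe sets, 64 controls were left out, 34945 had 1 symbol in the platform's list, 932 had several and 9160 were not listed. The brightest single-symbol probe set stood for each of 18193 genes, and no filter on low values was used.

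A model of the 4 group means was fitted with limma 3.58.1 (R 4.3.3) to all genes, with 5 comparisons and the moderated two-sided test, and was tested on simulated data. Groups came from the labels, and the number of arrays limits precision. Members, lists and alternatives were chosen with earlier results of these data known, and the alternatives with cortical marker levels after these data were seen. Genes were named by rule: values per group for the 12 largest called changes on vehicle, changes for the others, and up to 4 called genes of smallest p per pathway list. Where a count was 5 or fewer, genes outside the rule were named after their values were seen. Alternatives changed normalization, probe set rule, filter, variance model, array weights, replicate number, RNA quality and single arrays. Replicate numbers shared by groups were not treated as pairs, since the labels do not say that they mark a shared source. Same-numbered arrays correlated somewhat more than others (median 0.07 against -0.02), and a fit with the replicate number as a block was also run.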

Additional observations from a re-analysis of the deposited data

Results flagged for a closer look

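An array far from the rest of its group was found in 12 of 148 combinations of a receptor gene and a group by Dixon's test at the 95% level, which flags about 1 in 20 groups by chance. Arrays high in their group were R6/2 vehicle replicate 7 for Gabra5 (10.00, next 8.31), R6/2 vehicle replicate 1 for Grik5 (9.87, next 8.76) and for Grm7 (10.07, next 9.66), and R6/2 HSP990 replicate 2 for Grin2a (4.54, next 4.23). In wild type the high arrays were vehicle replicate 2 for Gabra6 (5.02, next 3.30), vehicle replicate 4 for Gabrr2 (5.50, next 5.03), vehicle replicate 1 for Gria4 (9.54, next 9.27) and HSP990 replicate 6 for Grik1 (5.98, next 5.15).

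Arrays low in their group were wild-type vehicle replicate 4 and HSP990 replicate 6 for Gabrd (9.62, next 10.18, and 9.69, next 10.11), and R6/2 vehicle replicate 1 and wild-type HSP990 replicate 2 for Gabrb2 (10.26, next 10.64, and 10.38, next 10.69). Wild-type vehicle replicate 4 and HSP990 replicate 6 had the highest cortical marker level of their groups (7.90 and 7.72). Without R6/2 vehicle replicate 1, Grm7 was called lower on vehicle (-0.25, adjusted p = 0.00135).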

How the results depend on the processing

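Of 32 calls of receptor genes between genotypes, 21 held in all 45 alternative settings and 11 were lost in at least 1, and no call changed direction. The count on vehicle (14) ran from 11, with only the vehicle groups in the fit, to 15, with array weights, and that on HSP990 (18) from 15, with the 3' bias of arrays as a covariate, to 20, with the cortical marker level as a covariate. With single arrays left out these counts were 12 to 14 and 16 to 18. HSP990 in wild type called 1 gene with the mean of probe sets (Gria4, 0.34, adjusted p = 0.0145) and 0 with any array left out. In R6/2 the counts with an array left out were 0 to 1, the 1 being Gria2 without R6/2 vehicle replicate 1. With probe sets averaged within each gene Grm7 was called lower on vehicle and HSP990 (-0.38 and -0.40). With the replicate number as a block 12 genes were called on vehicle (all lower) and 17 on HSP990, Gabra5 being lost in both (adjusted p = 0.0612 and 0.0512), and 0 for HSP990 and the interaction. Same-numbered arrays had a median correlation of 0.07, 19 of 43 pairs were over 0.1 (differently numbered arrays had a median of -0.02, with 95 of 338 over 0.1), and 4 of 32 arrays correlated best with their own number. With the cortical marker level as a covariate, Gabra3 (0.54) and Grin3a (0.41) were also called higher on HSP990. The causes were not tested. Gapdh 3' minus 5' differences over 2 were found in R6/2 HSP990 replicate 5 (5.01) and wild-type vehicle replicate 5 (2.23), and receptor genes below the median of all probe sets are measured with less certainty.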
